A study of Mus musculus with 8 samples.

Results

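The *Snai*, *Twist*, *Zeb* and *Prrx* genes encode transcription factors of the mesenchyme, and each gene comes with a close relative: *Snai1* with *Snai2*, *Twist1* with *Twist2*, *Zeb1* with *Zeb2* and *Prrx1* with *Prrx2*. These 8 genes were chosen by symbol from the 28001 features of the count tables and followed through embryonic mouse forelimbs by stage, limb segment and cell class. *Snai* and *Zeb* proteins are zinc finger repressors that bind E-box motifs, at which they switch off epithelial adhesion genes such as *Cdh1* (E-cadherin) when epithelial cells become mesenchymal. *Twist* proteins are basic helix-loop-helix (bHLH) factors that pair with E proteins or with each other and that the *Id* proteins oppose, and *Prrx* proteins are paired-type homeodomain factors of the limb bud mesenchyme. In the limb, where most cells descend from mesoderm that is already mesenchymal, all of these families are known from outgrowth and from the patterning of skeleton and skin.

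Single-cell RNA-seq (scRNA-seq) was performed on C57BL/6J forelimbs with 10x Genomics 3′ libraries, whose unique molecular identifiers (UMIs) allow captured transcripts to be counted once. The labels give the sorted libraries as *Hic1*CreERT2/CreERT2;Rosa26LSLtdTomato/tdTomato, and the methods give both alleles to the whole limb libraries too, so every group compared here, the whole limb included, carried the Cre and the reporter. Dams were gavaged with 7.5 mg tamoxifen at embryonic day (E) 10, which labels with tdTomato the cells expressing *Hic1* at about that time, together with their descendants. There were 8 libraries in 7 groups. Sorted tdTomato+ cells were profiled at 5 stages, E11.5 to E14.5 at daily intervals and then E16.5, the last from a proximal segment (distal stylopod, proximal zeugopod and elbow) and a distal segment (distal zeugopod and autopod). The whole limb at E11.5 was profiled in 2 libraries (whole 1 and whole 2) of all lineage-negative cells, tdTomato+ and tdTomato-. Limbs of several embryos were pooled for each sorted library. The sort removed cells with blood and endothelial surface markers (CD45, CD117, CD31, CD11b, F4/80 and Ter119).

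Cells with at least 3000 UMIs and at most 10% mitochondrial UMIs were kept, which left 53085 of 57469 barcodes, between 3165 and 11109 cells and between 31500092 and 234893903 UMIs a library. Any pair of libraries shared at most 48 barcodes. The median depth was 6788 to 8992 UMIs a cell up to E13.5, in the whole limb as in the sort, and 14333 to 18473 from E14.5. On the counts-per-million scale (CPM, or UMIs-per-million on plots), *Hic1* itself was at 22.0 to 38.0 CPM in the 6 sorted libraries and at 0.702 and 0.741 in whole 1 and whole 2. The mesenchymal filament gene *Vim* was at 169 CPM or more in all 8 libraries, while *Cdh1* was at 0.0881 to 0.910 outside E16.5 and at 20.05 in E16.5 proximal and 2.27 in E16.5 distal. Epithelial cells were part of the E16.5 proximal library: the summed level of 8 epithelial markers was 35.7 to 115 CPM in the other 4 time course libraries, 4670 in E16.5 proximal and 713 in E16.5 distal. The kit changed from v2 to v3 between E13.5 and E14.5 and the dissociation enzymes changed between E12.5 and E13.5, so a step between those stages cannot be told apart from the kit or the enzymes. A level in CPM is relative to all UMIs of the library or of the cell class. It is not corrected for transcript length, so levels are compared between libraries and classes and not between genes. With 1 library for each sorted group no test was made between them, and ratios carry exact 95% intervals that cover counting error only. Fewer cells of a type and less RNA per cell cannot be told apart in a library total.

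*Snai1*, which encodes the Snail repressor, showed the largest difference of the 8 genes along the time course. It was at 414 CPM at E11.5 (exact Poisson 95% interval 407 to 421) and at 355 at E12.5. It was then at 45.4 at E13.5 (43.4 to 47.4), 33.2 at E14.5, 28.4 in E16.5 proximal and 33.3 in E16.5 distal. Whole 1 and whole 2 held 236 and 247. The libraries thus fell into 4 high ones, all of E11.5 or E12.5, and 4 low ones, with no level between 45.4 and 236. The high ones are also those made before the dissociation enzymes changed, so stage and enzymes cannot be told apart. E14.5 and E16.5 distal did not differ beyond their intervals.

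The sequence before the *Snai1* start is shown because *Snai1* carried the largest step and because Snail proteins bind E-boxes. The gene lies at chr2:167538195-167542814 on the plus strand (GRCm38, GENCODE annotation). The 250 bases before the start, chr2:167537945-167538194 (GRCm38.p6, RefSeq, plus strand), hold 1 copy of the E-box CACCTG, 126 bases before the start, shown in capitals. The motif was searched as CACCTG or CAGGTG, which are the same site read on either strand. For comparison, the same window of *Epcam*, an epithelial adhesion gene on the plus strand (chr17:87635729-87635978), holds 2 copies, 187 and 19 bases before the start.
Snai1: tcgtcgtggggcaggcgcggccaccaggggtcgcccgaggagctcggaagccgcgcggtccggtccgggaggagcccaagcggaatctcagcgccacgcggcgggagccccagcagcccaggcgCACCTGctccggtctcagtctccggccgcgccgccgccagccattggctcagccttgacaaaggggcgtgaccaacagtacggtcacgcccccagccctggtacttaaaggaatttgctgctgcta
Epcam: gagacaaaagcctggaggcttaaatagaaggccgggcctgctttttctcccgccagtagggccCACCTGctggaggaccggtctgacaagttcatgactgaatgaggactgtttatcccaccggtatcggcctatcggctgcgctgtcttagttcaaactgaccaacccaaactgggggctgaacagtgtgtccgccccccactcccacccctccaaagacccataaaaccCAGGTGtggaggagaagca
One of these letter strings was found in 5657 of 32851 promoter windows of the same length (17.2%). Of the 8 genes, 6 were matched in the RefSeq table with 9 start sites, and only the *Snai1* window held it. *Snai2* and *Zeb1* had no match in the set of promoter windows used here. A match is a string of letters and not a bound site.

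Between E12.5 and E13.5 *Snai1* was 7.83-fold lower (95% interval 7.48 to 8.21). *Snai2*, which encodes the related repressor Slug (chr16:14705852-14709385, plus strand), was at 109 CPM in the E11.5 sort, 97.1 in that of E12.5 and 23.5 in that of E13.5, then 24.2 at E14.5, 30.6 in E16.5 proximal and 32.6 in E16.5 distal, with 126 and 136 in whole 1 and whole 2. Its high and low libraries were the same as those of *Snai1*, and its step at E13.5 was 4.13-fold (3.86 to 4.42). The other 6 genes differed by less than 2-fold at this step. Of the 8 genes 2 were thus at least 2-fold lower at E13.5 and 0 higher, where 1.89% of the 10366 features compared were lower and 2.19% higher. The median log2 ratio over all features was -0.04. Measured from E11.5 the same 2 genes were lower at E13.5, *Snai1* by 9.13-fold (8.72 to 9.57) and *Snai2* by 4.63-fold (4.32 to 4.97), with 0 of the 8 higher. The background there was 4.17% lower and 6.03% higher of 10454 features. Both comparisons share the E13.5 library and span the change of enzymes.

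**Figure D1:**
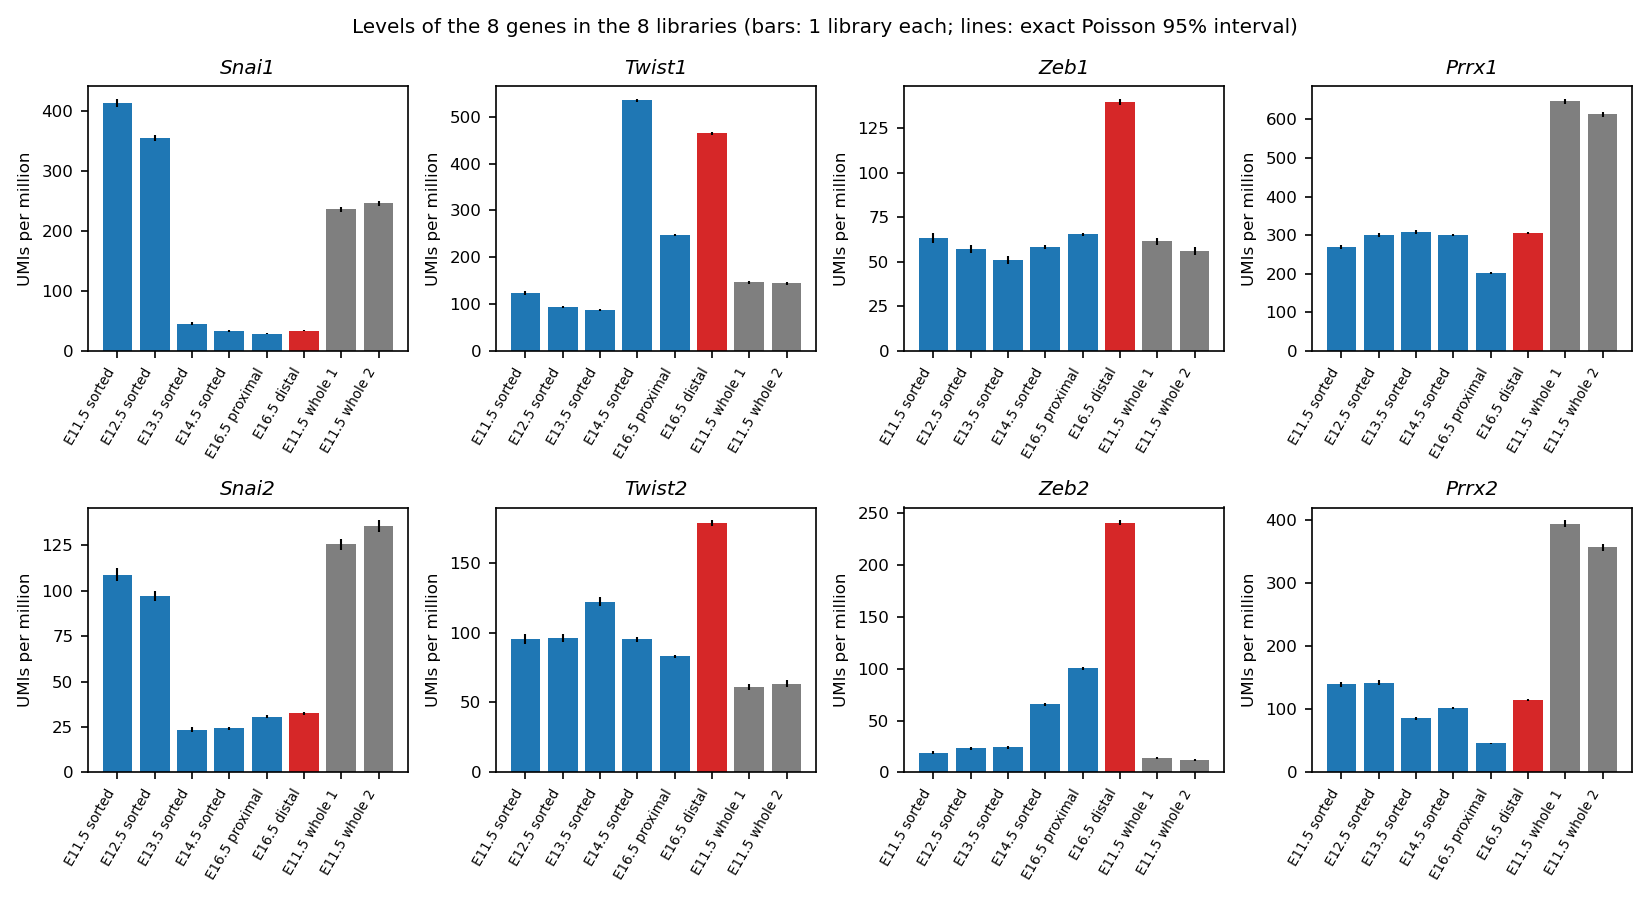
Level of each of the 8 genes (y axis, CPM) in each of the 8 libraries (x axis), with 1 bar per library and its exact Poisson 95% interval as a line (blue, sorted time course; red, E16.5 distal; grey, whole limb at E11.5). *Snai1* stands at 355 or more in the first 2 sorted libraries and at 45.4 or less in the later ones, *Twist1* peaks at 535 at E14.5, and *Prrx1* and *Prrx2* are highest in the whole limb.

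The share of cells with a *Snai1* UMI followed the level. With every cell thinned to 3000 UMIs the share was 58.1% at E11.5 and 56.6% at E12.5, and 11.1% at E13.5, then 8.60% (E14.5) and 8.52% (E16.5 proximal) (unthinned, 81.8%, 80.3%, 21.8%, 29.3% and 34.7%). In epithelial-like cells of E16.5 proximal, which should lack *Snai1*, it was 0.491% of 611 cells thinned and 7.04% unthinned (median 46117 UMIs, against 18473 in the library). Thinning is random: a second draw gave 0.327%, and over the 8 genes the thinned shares in these cells were 0.491% to 3.27% in the first draw and 0.327% to 3.76% in the second. For *Snai2* the thinned share was 24.7%, 23.2%, 6.60%, 6.77% and 7.58% in the same 5 libraries (unthinned, 50.6%, 47.9%, 14.3%, 24.4% and 30.3%), against 2.13% in the epithelial-like cells. Epithelial-like shares given below are of E16.5 proximal unless another library is named. In the few epithelial-like cells of whole 1 and whole 2 the thinned share was 15.4% and 4.17% for *Snai1*. It was 35.9% and 12.5% for *Prrx1*, and 20.5% and 0% for *Twist1*.

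The step was also present inside clusters, where stage and enzymes cannot be told apart either. Cells of the time course were clustered without the 8 genes, and a cluster was named after marker genes with the ending "-like". At E12.5 *Snai1* ranged from 122 to 435 CPM over 7 clusters and at E13.5 from 24.2 to 83.2 over 6 clusters, so the ranges did not overlap. It was lower at E13.5 in 6 of 6 shared clusters, by 3.53-fold to 11.1-fold. The early mesenchymal progenitor-like class, which counts *Id1*, *Id2* and *Id3* among its markers, went from 384 to 38.0 (10.1-fold, 8.99 to 11.4), and the mitotic-like class from 363 to 47.8 (7.59-fold). The highest *Snai1* level at E13.5, 83.2, was in an unnamed cluster led by *Wwp2*, *Sox6* and *Matn4*, the last 2 being a cartilage regulator and a cartilage matrix gene. *Snai2* was lower in 6 of 6 clusters by 1.07-fold to 6.58-fold. In the cluster with the smallest *Snai2* step, led by *Stmn2* and with 63 cells at E12.5, the interval of the fold (0.557 to 1.88) included 1.

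**Figure D2:**
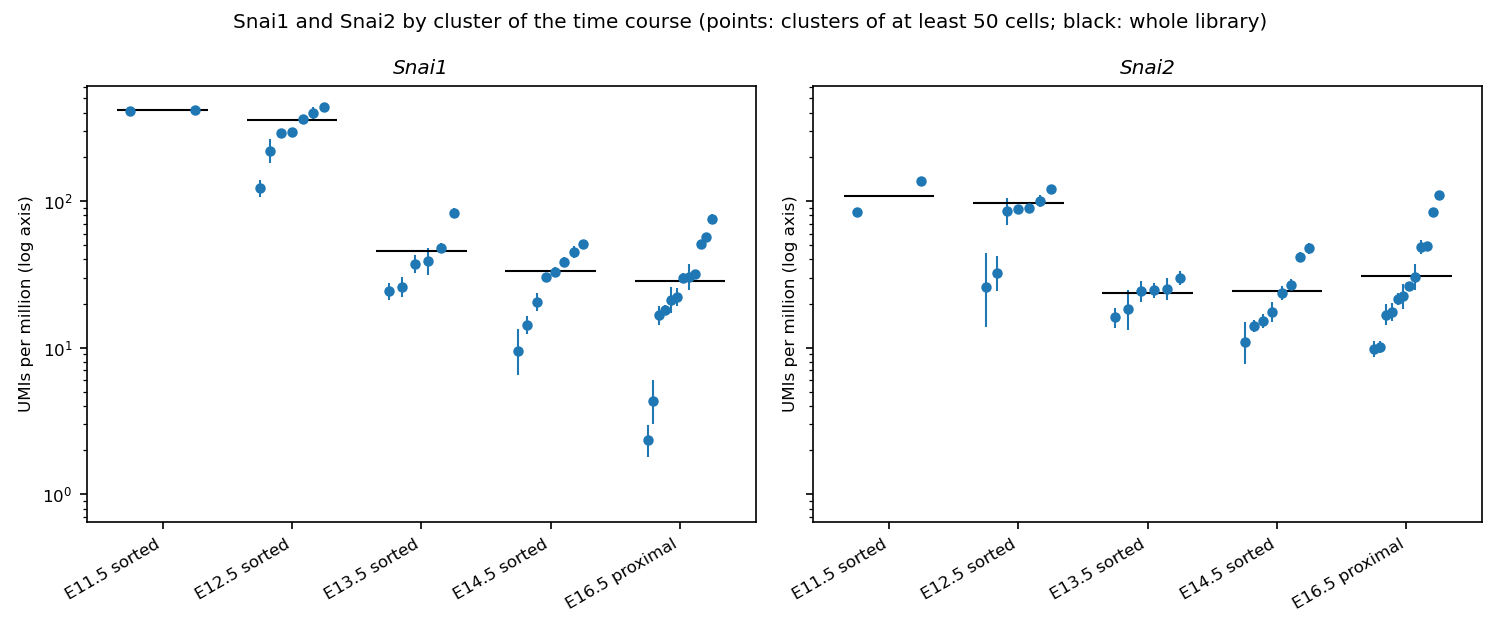
Level of *Snai1* and *Snai2* (y axis, CPM, log axis) in the 5 time course libraries (x axis), with a point for each cluster of at least 50 cells and a vertical line for its exact Poisson 95% interval, and a black mark for the whole library. Every E13.5 cluster lies below every E12.5 cluster for *Snai1* (24.2 to 83.2 against 122 to 435).

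Of 6 gene lists with measured members, 1 held genes past 2-fold at the same step. Of the bHLH partners and *Id* inhibitors, 5 of 9 measured genes were at least 2-fold lower at E13.5 than at E12.5 and 0 higher, with a median log2 ratio of -1.41, where 1.89% of all features were lower. *Id1*, an inhibitor of bHLH factors, was at 1201 CPM at E12.5 and 140.5 at E13.5 (8.55-fold), and *Id3* at 2128 and 495 (4.30-fold). The 9 mesenchymal adhesion, cytoskeleton and matrix genes measured held 0 past 2-fold, with the largest ratio at *Sparc*, a collagen-binding matrix gene (342 and 587). Of 5 TGF-beta ligands and receptors and of 8 co-repressors 0 passed 2-fold. The other paired-type homeobox genes gave 0 of 3 and the epithelial genes 0 of 1, *Epcam* (31.3 and 21.7). *Snai3*, *Scrt1* and *Scrt2*, the other genes of the Snail superfamily, were under 5 CPM in both libraries. The summed level of 12 immediate early genes, which respond to tissue handling among other signals, was 3064, 3374, 2282, 1633 and 3621 from E11.5 to E16.5 proximal. It was lower at E13.5 than at E12.5, as *Snai1* was, and highest of these 5 in E16.5 proximal, where *Snai1* was lowest. Its part in the *Snai1* step was not tested.

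*Zeb1*, on chromosome 18, encodes a large repressor with zinc finger clusters at both ends. From E11.5 to E16.5 proximal it was at 63.5, 57.0, 50.8, 58.2 and 65.3 CPM. It was at 140 in E16.5 distal and at 61.4 and 55.9 in whole 1 and whole 2. Along the time course no step reached 2-fold, and the intervals of 5 neighbouring pairs in the order of its levels overlapped. Only E16.5 distal stood apart by over 2-fold. The thinned share of cells with a *Zeb1* UMI was 13.7% to 17.2% along the time course and 30.1% in E16.5 distal (unthinned, 28.6% to 56.5% and 73.4%), against 1.47% in epithelial-like cells.

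*Zeb2* (chr2:44983632-45117395, minus strand), the relative of *Zeb1*, had a different profile. It was at 19.0, 23.1 and 24.3 CPM at E11.5, E12.5 and E13.5. It was at 65.6 at E14.5, 100.3 in E16.5 proximal and 241 in E16.5 distal, and at 13.4 and 11.7 in whole 1 and whole 2. The 5 libraries up to E13.5 were thus all below the 3 later ones. This is also the split between the v2 and v3 kits, so stage and kit cannot be told apart. E12.5 and E13.5 did not differ beyond their intervals, and neither did whole 1 and whole 2. From E11.5 to E16.5 proximal *Zeb2* was 5.26-fold higher (4.85 to 5.72). The thinned share of cells with a *Zeb2* UMI was 5.53% at E11.5, 19.9% in E16.5 proximal and 37.0% in E16.5 distal (unthinned, 13.3%, 48.0% and 66.5%), against 0.818% in epithelial-like cells.

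*Twist1* (chr12:33957671-33959829, plus strand), a bHLH factor needed for limb bud outgrowth, was at 124, 93.4 and 86.8 CPM at E11.5, E12.5 and E13.5. It was at 535 at E14.5, 247 in E16.5 proximal and 464 in E16.5 distal, and at 146 and 144 in whole 1 and whole 2. All 3 libraries from E14.5 on were above all 5 earlier ones. Between E13.5 and E14.5 *Twist1* was 6.16-fold higher (5.96 to 6.36) and *Zeb2* 2.70-fold (2.53 to 2.88), so that 2 of the 8 genes were higher and 0 lower. The background was 5.1% higher and 6.5% lower of 10522 features. This is the step at which the kit changed, and stage and kit cannot be told apart. Within the mitotic-like class *Twist1* went from 99.0 to 407, while *Twist2* went from 135 to 42.1, but the mitotic-like cells of these stages lay in different clusters (1139 of 1140 cells in one at E13.5, 786 of 798 in another at E14.5). At E13.5 *Twist1* ranged from 44.2 to 141 over 6 clusters and at E14.5 from 238 to 1151 over 8 clusters, with no overlap. Most of these clusters held cells of only 1 of the 2 stages. The thinned share was 19.5% at E13.5 and 61.8% at E14.5 (unthinned, 36.1% and 89.8%), against 2.95% in epithelial-like cells. The mesenchymal adhesion and matrix list had 5 of 10 genes higher at E14.5 and 0 lower (*Col1a1*, 709 and 2772), and the bHLH and *Id* list 0 of 9 higher and 2 lower (*Id4*, 70.5 and 28.6).

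*Twist2* (chr1:91801461-91848028, plus strand), known for its role in the dermis, stayed within 2-fold along the time course. It was at 95.1, 96.2, 122, 95.2 and 83.0 CPM from E11.5 to E16.5 proximal. It was at 178 in E16.5 distal, the highest of all, and at 61.1 and 63.5 in whole 1 and whole 2, the lowest. E11.5, E12.5 and E14.5 did not differ beyond their intervals. The thinned share was 16.2% to 22.9% along the time course (unthinned, 37.3% to 44.7%), against 1.31% in epithelial-like cells. The flat total hid large differences between clusters: at E14.5 *Twist2* ranged from 12.4 to 365, 29.5-fold over 8 clusters.

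*Prrx1* (chr1:163245119-163313710, minus strand), a homeobox gene of the limb mesenchyme, was at 269, 301, 309, 300.5 and 201 CPM from E11.5 to E16.5 proximal and at 305 in E16.5 distal. Whole 1 and whole 2 held 647 and 614, both above every sorted library. The E16.5 distal level was next to those of E12.5 to E14.5, and the intervals of these neighbours overlapped. Its relative *Prrx2* (chr2:30834972-30881251, plus strand) was at 139, 142, 85.4, 102 and 45.9 in the time course, at 114 in E16.5 distal and at 395 and 357 in the whole limb. The thinned shares were 40.3% to 46.7% of cells for *Prrx1* and 12.9% to 29.7% for *Prrx2* along the time course (unthinned, 61.9% to 77.7% and 40.6% to 63.2%), against 3.27% and 1.15% in epithelial-like cells. In whole 1 they were 70.3% and 58.7% (unthinned, 89.2% and 79.8%), against 35.9% and 20.5% in the 39 epithelial-like cells of that library.

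Between E14.5 and E16.5 proximal, both of the v3 kit, *Twist1* was 2.17-fold lower (2.14 to 2.19) and *Prrx2* 2.21-fold lower (2.16 to 2.27), and 0 of the 8 genes were 2-fold higher. Of 10493 features, 7.91% were lower and 7.7% higher, with a median log2 ratio of -0.21. Forelimbs were not divided into segments at E14.5, so stage and segment cannot be told apart here. In E16.5 distal *Twist1* was at 464 CPM and *Prrx2* at 114, against 535 and 102 at E14.5. The call also rested on the composition and the scaling. Without epithelial-like cells the log2 ratio was -0.96 for *Twist1* and -0.99 for *Prrx2* (against -1.12 and -1.15), which leaves 0 of 8 past 2-fold. The same count was reached with TMM scaling, which put the median of all features at 0.04. The epithelial adhesion and splicing genes were higher in E16.5 proximal in 7 of 8 cases, among them *Ovol1*, which encodes an epithelial transcription factor (0.366 and 48.8 CPM), and *Rab25*, which encodes an epithelial trafficking GTPase (2.03 and 121).

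Over the whole interval from E11.5 to E16.5 proximal, *Snai1* was 14.6-fold lower, *Snai2* 3.56-fold lower and *Prrx2* 3.04-fold lower, and *Zeb2* was higher. That made 3 of 8 genes lower, where 30.2% of 10903 features were lower, and 1 of 8 higher, where 14.6% were. The shares of the 8 genes were close to the background in number. Stage, segment, kit and enzymes cannot be told apart over this interval. In E16.5 distal *Snai1* was at 33.3 CPM, *Snai2* at 32.6, *Zeb2* at 241 and *Prrx2* at 114, the last against 139 at E11.5. *Twist1* was at a ratio of 1.995 (1.93 to 2.06), just under the limit, and passed it under 8 of 11 alternative settings. The median log2 ratio of all features was -0.51 and became -0.06 with TMM scaling, so a fold here is relative to that shift. The bHLH and *Id* list held 7 of 9 lower genes (*Id2*, 2027 and 104) and 0 higher, the co-repressors 6 of 8 lower (*Ajuba*, 84.5 and 7.65) and 0 higher, and the mesenchymal adhesion and matrix genes 7 of 10 higher and 1 lower (*Col1a1*, a fibrillar collagen, 256 and 5592). The epithelial list had 8 of 8 higher, with a median log2 ratio of 6.57, the TGF-beta list 3 of 6 higher and 2 lower, and the paired-type homeobox list 0 of 4 higher and 3 lower.

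Detection of both genes of a pair in the same cell was compared with independent detection. The count was over all cells of a library and not within classes, so differences between cell types also enter the value. With all cells thinned to 3000 UMIs, cells with both *Prrx1* and *Prrx2* were 1.08 to 1.19 times as many as independent detection would give in the 8 libraries, and cells with both *Snai1* and *Snai2* 1.07 to 1.52 times. Such cells were few for *Snai1* and *Snai2* from E13.5 on, with 49 of 6123 cells at E13.5 and 90 of 11109 in E16.5 proximal. For *Twist1* and *Twist2* the value was 0.989 at E11.5 and 1.72 in E16.5 proximal. For *Zeb1* and *Zeb2* it was 0.861 in E16.5 distal and 1.73 in whole 2, where it rests on 42 cells. At least 1 of the 8 genes was detected in 78.6% (E16.5 proximal) to 96.6% (whole 1 and whole 2) of cells.

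At E14.5 the genes differed in the class in which they were highest. In dermal fibroblast-like cells (1149) *Twist1* was at 1150.1 CPM, *Twist2* at 365 and *Zeb2* at 192, each the highest value among the 6 named classes. In tenocyte-like cells (1278) *Twist1* was at 239, *Twist2* at 27.5 and *Zeb2* at 17.1. *Prrx1* was highest in perichondrial-like cells (703), at 738, against 196 in tenocyte-like cells. *Prrx2* and *Snai2* were highest in distal limb mesenchyme-like cells (847), at 231 and 47.6. Fibrogenic progenitor-like cells (274) combined a high *Twist1* level (722) with the lowest *Twist2* (12.4) and *Snai1* (9.49) levels. *Zeb1* varied least, from 44.1 to 74.3 over 8 clusters, or 1.68-fold.

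At E16.5 both segments were clustered together, and 6 named classes held at least 50 cells in each. Many cells lay outside these classes and are left out of the class rankings and ratios. The largest distal cluster, with 1791 of 8447 cells, was among them. *Twist1*, *Twist2* and *Zeb2* were highest in dermal fibroblast-like cells in both segments (1141 proximal and 1817 distal cells). So was *Snai1*, at 56.6 and 65.0, but distally the perichondrial-like level of 63.3 was next to it, and the highest distal class was chondrocyte-like at a clustering resolution of 0.5 (89.7) and perichondrial-like at a resolution of 2 (94.3). *Twist1* was at 789 proximally and 931 distally, *Twist2* at 454 and 630.4, and *Zeb2* at 406 and 622. *Zeb1* was lowest of the 6 classes in these same cells, at 31.1 and 63.3. A single cluster of the mitotic-like class, led by *Hist1h1b* and *Hist1h2ap*, was above the dermal fibroblast-like class as a whole. It held *Twist1* at 821 and 1056, *Twist2* at 478 and 696 and *Snai1* at 75.4 and 75.2, with *Zeb2* at 723 distally. *Prrx1* was highest in perichondrial-like cells, at 535 and 618. In all, 5 of the 8 genes had the same highest class in both segments, against 6 at a resolution of 0.5 and 4 at a resolution of 2, where some of the highest classes were others. The others were *Snai2* (dermal fibroblast-like proximally, perichondrial-like distally), *Zeb1* (tenocyte-like at 87.1, fibroblast-like at 210.2) and *Prrx2* (perichondrial-like at 139.9, dermal fibroblast-like at 190.2). Among single proximal clusters *Zeb1* was highest, at 114, in a cluster outside the 6 classes.

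Tenocyte-like cells (839 and 491) had the lowest *Twist2* (15.2 and 20.4), *Zeb2* (15.2 and 32.6) and *Prrx1* (182 and 140.2) levels of the 6 classes. Without doublet-scored cells these were 9.27 and 8.12 for *Twist2* and 9.49 and 22.2 for *Zeb2*, still the lowest. Pericyte-like cells (418 and 207) held *Zeb2* at 304 and 408, next to the dermal fibroblast-like cells, with *Twist2* at 52.5 and 46.2. Chondrocyte-like cells were numerous only proximally (1051). They held *Snai2* at 85.3, above every class shared by the segments, and *Prrx1* at 90.4, below all of them.

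**Figure D3:**
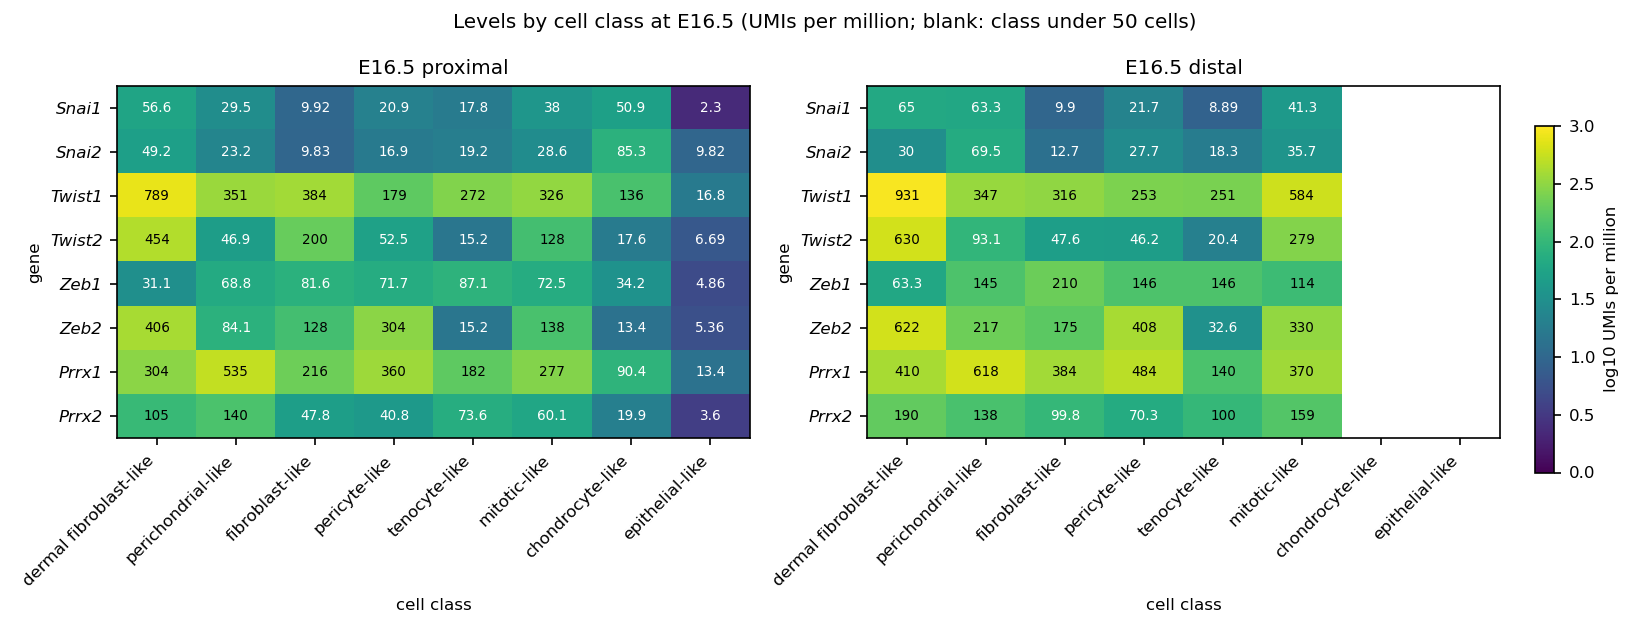
Level of each of the 8 genes (rows) in the cell classes (columns) of E16.5 proximal and E16.5 distal, coloured by log10 CPM, with blanks where a class has under 50 cells. Of the classes shown, dermal fibroblast-like cells hold the highest *Twist1*, *Twist2* and *Zeb2* levels in both segments. They hold the lowest *Zeb1* level of the 6 shared classes. Epithelial-like cells, shown for the proximal segment, hold each gene at 16.8 or less.

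*Snai2* differed between 2 sets of keratin-expressing cells. Epithelial-like cells of E16.5 proximal, led by the suprabasal genes *Krt1* and *Lor*, held each of the 8 genes at 16.8 CPM or less, *Snai2* at 9.82 among them. A separate cluster led by *Krt14*, *Krt5* and *Epcam*, the first 2 being keratins of basal epidermis, stayed unnamed because its leading genes held more markers of another class. Its 325 proximal cells had *Snai2* at 109.6 (102.5 to 117), the highest of 16 clusters of that library, and its 40 distal cells had 158 (134 to 186). The other 7 genes were between 4.33 (*Snai1*) and 20.7 (*Twist1*) in its proximal cells. With cells thinned to 3000 UMIs, 28.9% of these proximal cells had a *Snai2* UMI and 1.23% a *Snai1* UMI (unthinned, 70.8% and 6.77%, median 22745 UMIs). In the few epithelial-like cells of the E11.5 whole limb, 39 in whole 1 and 24 in whole 2, *Snai2* was at 63.9 and 68.8 and *Snai1* at 40.6 and 19.6, all below the levels of the whole libraries (126 and 136 for *Snai2*, 236 and 247 for *Snai1*). *Zeb1* had 17 UMIs in these cells of whole 1 and 0 in those of whole 2, which allows up to 3 UMIs. The same cells held *Prrx1* at 160 CPM, *Prrx2* at 165 and *Twist1* at 110 in whole 1. In whole 2 these were 34.4, 39.3 and 19.6. Whether RNA of mesenchymal cells was mixed into them was not tested.

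Between the segments at E16.5, 4 of the 8 genes were at least 2-fold higher distally and 0 lower, where 5.66% of 10352 features were higher and 4.78% lower. These were *Prrx2* at 2.49-fold (2.43 to 2.55), *Zeb2* at 2.40-fold (2.37 to 2.44), *Twist2* at 2.15-fold (2.11 to 2.19) and *Zeb1* at 2.14-fold (2.10 to 2.18). *Twist1* was at 1.88, *Prrx1* at 1.51 and *Snai1* at 1.17. *Snai2* was at 1.06, a ratio that fell below 1 with TMM scaling. The median log2 ratio was 1.00 over the 8 genes and 0.14 over all features (-0.05 with TMM scaling). Without epithelial-like cells, which numbered 611 proximally and 28 distally, 2 genes stayed past 2-fold, *Prrx2* at a log2 ratio of 1.16 and *Zeb2* at 1.11. The count was also 2 with TMM scaling. The matrix header names Cell Ranger 6.0.1 for the distal library and 3.0.2 for the proximal one, so segment and software version cannot be told apart.

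The differences were then taken inside the 6 shared classes. *Zeb1* was higher distally in 6 of 6 classes, by 1.57-fold (mitotic-like) to 2.58-fold (fibroblast-like). *Zeb2* was higher in 6 of 6, by 1.34-fold (pericyte-like) to 2.58-fold (perichondrial-like). *Prrx1* and *Prrx2* were higher in 5 of 6 each, with *Prrx1* at 0.769 in tenocyte-like cells and *Prrx2* at 0.986 (0.900 to 1.08) in perichondrial-like cells. *Snai1*, *Snai2* and *Twist2* were higher in 4 of 6 and *Twist1* in 3 of 6. Among these the interval included 1 for *Snai1* in mitotic-like (0.992 to 1.19) and pericyte-like cells (0.821 to 1.31) and for *Snai2* in fibroblast-like cells (0.9997 to 1.68). For *Twist2* in tenocyte-like cells the direction turned without doublet-scored cells (9.27 proximally and 8.12 distally, against 15.2 and 20.4). The ratios of *Snai2* ran from 0.610 (dermal fibroblast-like) to 2.99 (perichondrial-like) and those of *Snai1* from 0.5004 (tenocyte-like) to 2.15 (perichondrial-like). *Twist2* ran from 0.238 (fibroblast-like, 200.3 proximally and 47.6 distally) to 2.18 (mitotic-like).

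In 3 of these classes the segments were held by different clusters. Fibroblast-like cells were mostly in a cluster led by *Ly6a* and *Efemp1* proximally and in one led by *Pi16* and *Cldn3* distally. Perichondrial-like cells were divided in the same way, with 405 of 406 proximal cells in one cluster and 481 of 493 distal cells in another. Dermal fibroblast-like cells lay in a cluster led by *Col7a1* and *Rspo1* proximally, and 1419 of 1817 distal ones in a cluster led by *Cpxm2* and *Mmp11*. In the 398 distal cells of the first of these clusters *Zeb1* was at 36.2 (31.7 to 41.2), against 31.2 (28.7 to 33.8) in its 1125 proximal cells, so the intervals overlapped, and it was at 70.5 in the second. *Zeb2* was at 705 distally and 409 proximally in the first cluster. The tenocyte- and pericyte-like classes shared their clusters. In these *Zeb1* was 1.68 and 2.04 times as high distally, *Zeb2* 2.14 and 1.34 times, and *Prrx2* 1.37 and 1.72 times. Mitotic-like cells were a mix of a cluster led by *Top2a* and *Nusap1* (1048 proximal and 436 distal cells) and a cluster led by *Hist1h1b* and *Hist1h2ap* (315 and 289), in unequal proportions between the segments. In the first, *Zeb2* was at 67.6 proximally and 105 distally and *Prrx2* at 40.2 and 84.3, and in the second *Zeb2* was at 408 and 723 and *Prrx2* at 137 and 290. *Twist2* was at 37.2 and 39.1 in the first and at 478 and 696 in the second. The class ratios of all 3 genes (2.40 for *Zeb2*, 2.65 for *Prrx2* and 2.18 for *Twist2*) were larger than in either cluster.

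**Figure D4:**
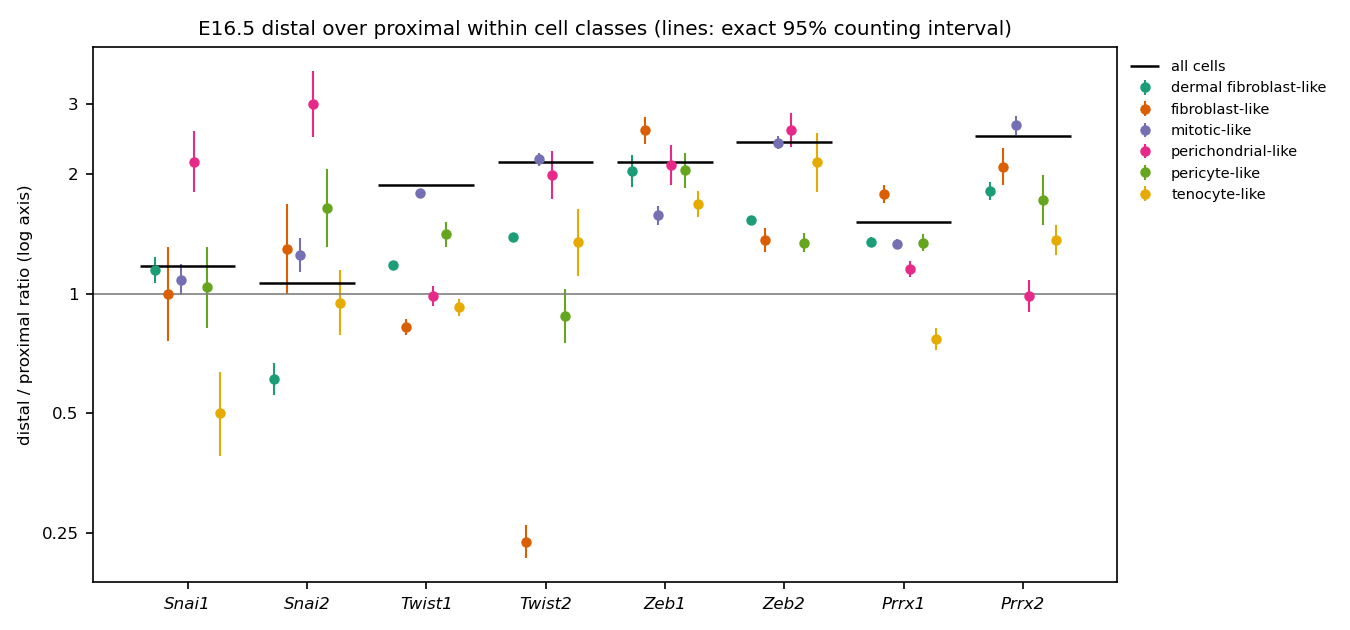
Ratio of the distal to the proximal level at E16.5 (y axis, log axis) for each of the 8 genes (x axis), with a point for each cell class and its exact 95% counting interval. All 6 points of *Zeb1* (1.57 to 2.58) and *Zeb2* (1.34 to 2.58) lie above 1, while those of *Snai1* (0.5004 to 2.15) and *Snai2* (0.610 to 2.99) lie on both sides.

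The lists were also counted between the segments, where 5.66% of all features were higher and 4.78% lower distally. Of the epithelial genes 8 of 9 were at least 2-fold lower distally (*Cldn4*, 59.8 and 3.09) and 1 higher. The mesenchymal adhesion and matrix list had 3 of 10 higher and 0 lower. Its leading genes were *Itga5*, a fibronectin receptor subunit (22.3 and 56.7), and *Cdh11*, a mesenchymal cadherin (157 and 337). The bHLH and *Id* list had 3 of 9 higher and 1 lower, with *Hand2*, a factor of posterior limb patterning, at 24.95 and 63.5. TGF-beta ligands and receptors had 1 of 6 higher (*Tgfb2*, 64.3 and 138) and 0 lower, the paired-type homeobox genes 1 of 3 in each direction, and the co-repressors 0 of 8.

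The E11.5 libraries allow a test, since the sorted cells can be set against 2 whole limb libraries. The question is whether the early *Hic1* lineage differed from the limb mesenchyme as a whole. UMIs were summed over 3157, 5080 and 5331 cells of sorted, whole 1 and whole 2 outside the glial-, blood-, endothelial-, muscle- and epithelial-like clusters, and tested with edgeR's quasi-likelihood test and Benjamini-Hochberg adjustment. There is 1 residual degree of freedom and the lone sorted library is taken to vary like the others. The residual spread is that between whole 1 and whole 2, which may be technical, and edgeR shares its estimate of spread across genes. The p-values thus measure no spread between sorted libraries. Over all kept cells, whole 1 and whole 2 differed by more than sampling noise (chi-square 16.4 per degree of freedom). This value was not computed for the tested sums. The matrix header of the sorted library names Cell Ranger 3.0.2 and those of whole 1 and whole 2 name no version. Whether the software version differed between them is thus not known, and its effect was not tested. The sorted cells fell almost wholly into 3 clusters that held few whole limb cells. The paper reports tdTomato+ cells at this stage mostly in the proximal limb. The whole limb libraries held 2312 and 2265 distal limb mesenchyme-like cells, so lineage and limb position cannot be told apart in this test. Of 15065 genes, 26.9% were higher and 26.6% lower in the sorted cells, so a call is common here. Without TMM scaling the split was 5465 higher and 2495 lower, against 4052 and 4002.

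*Prrx2* and *Prrx1* were lower in the sorted cells. *Prrx2* was at 140.0 CPM in sorted against 427 and 383 in whole 1 and whole 2 (log2 fold change -1.71 ± 0.12 SE, edgeR quasi-likelihood test with Benjamini-Hochberg adjustment, adjusted p = 2.42e-46). *Prrx1* was at 270.5 against 703 and 659 (-1.51 ± 0.12, adjusted p = 6.28e-32 by the same edgeR test). Both were below both whole limb libraries. *Snai2* (109 against 131 and 142, -0.50 ± 0.098, edgeR adjusted p = 1.44e-06) and *Twist1* (124 against 156 and 152, -0.50 ± 0.098, edgeR adjusted p = 2.61e-06) were lower too, by a smaller amount.

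*Zeb2*, *Snai1* and *Twist2* were higher in the sorted cells. *Zeb2* was at 18.6 against 8.70 and 8.21 (log2 fold change 0.96 ± 0.14 SE, edgeR adjusted p = 2.29e-10). *Snai1* was at 415 against 237 and 247 (0.60 ± 0.10, edgeR adjusted p = 5.74e-08), and *Twist2* at 95.6 against 64.5 and 66.7 (0.36 ± 0.094, edgeR adjusted p = 0.000447). *Zeb1* (63.2 against 56.2 and 51.8) did not pass (0.05 ± 0.10, edgeR adjusted p = 0.728). In all 3 of the 8 genes were higher and 4 lower, a share in each direction that is to be read against the background of 26.9% and 26.6%. Members of a pair went in opposite directions for *Snai1* and *Snai2* and for *Twist1* and *Twist2*. Without the filter on low counts *Snai2* (edgeR adjusted p = 0.0513) and *Twist2* (edgeR adjusted p = 0.0652) did not pass.

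**Figure D5:**
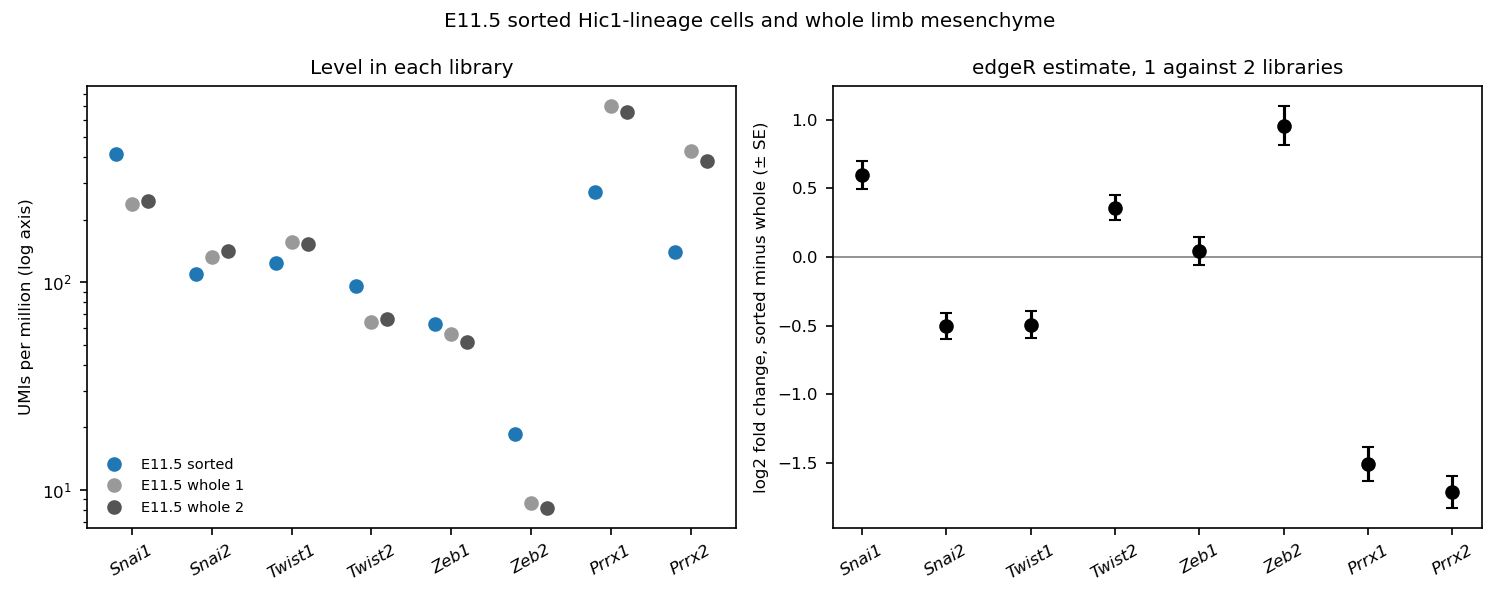
Left, level of each of the 8 genes (y axis, CPM, log axis) in the mesenchymal cells of the E11.5 sorted library and of whole 1 and whole 2. Right, edgeR log2 fold change, sorted minus whole, with its standard error. *Prrx1* (-1.51) and *Prrx2* (-1.71) lie lowest and *Zeb2* (0.96) highest.

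The same test gave counts for the surrounding lists, to be read against 26.9% of all genes higher and 26.6% lower. The mesenchymal adhesion and matrix list had 7 of 10 genes higher and 1 lower, led by *Col1a1* (log2 fold change 1.48) and *Sparc* (1.22), while *Cdh11* was lower (-0.78). TGF-beta ligands and receptors had 5 of 6 higher and 0 lower, led by *Tgfb3* (1.84) and *Tgfbr3* (1.34). The bHLH and *Id* list had 1 of 10 higher and 5 lower, with *Id1* at -1.14. The other paired-type homeobox genes had 1 of 6 higher (*Shox2*, 0.55) and 2 lower, the co-repressors 1 of 8 higher (*Ajuba*, 0.89) and 4 lower (*Kdm1a*, -0.86), the epithelial genes 2 of 6 in each direction, and the Snail superfamily 0 of 1. The median over all 15065 genes was 0.01.

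In the whole limb the genes also separated cell classes, and whole 1 and whole 2 gave similar levels. Some differed beyond their intervals, such as *Prrx1* in proximal limb mesenchyme-like cells (953 to 998 in whole 1, 855 to 895 in whole 2). Myogenic-like cells (316 and 292) held *Zeb2* at 60.5 and 50.5 and *Zeb1* at 122 and 116, against 6.14 and 5.77 and 57.0 and 54.2 in distal limb mesenchyme-like cells (2312 and 2265). *Prrx1* was at 102 and 112 in myogenic-like cells, 564 and 540.1 in distal limb mesenchyme-like cells and 975 and 875 in proximal limb mesenchyme-like cells (873 and 1002). The distal class was not uniform: in whole 2 its clusters held *Prrx1* at 334 to 867, and the highest of them was above 1 of the proximal clusters (839). *Prrx2* was higher in the distal than in the proximal class, at 501 and 463 against 452 and 400.2. Not every distal cluster was: they ran from 388 to 628 in whole 1 and from 322 to 591 in whole 2. The proximal clusters held *Prrx2* at 447 and 462 in whole 1 and at 398 and 405 in whole 2. *Twist2* was at 84.5 and 81.6 in the proximal and at 38.3 and 37.9 in the distal class. In whole 2 the proximal clusters held it at 48.5 and 100, and the highest distal cluster at 48.6. *Snai1* was of similar level in all 3 classes, at 202 to 281. Clusters outside these classes went higher. A cluster of 780 and 802 cells in whole 1 and whole 2 held *Snai1* at 313 and 327. Another, of 736 and 823 cells, held *Twist2* at 114 and 117. Where markers of these classes define a cluster, the 8 genes took no part in the clustering.

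The genes whose pattern was most like that of a member were taken by Pearson correlation of log2(CPM + 1) over 32 groups of at least 100 cells (1 class in 1 library), out of 11348 features. The groups share libraries, kits and depth, and the values are descriptions. Most like *Snai1* were *Id2* (r = 0.954), *Atoh8* (0.935) and *Id1* (0.923), and most like *Snai2* were *Id1* (0.926), *Snai1* itself (0.898) and *Id3* (0.892). For *Twist1* these were *Gnai2* (0.862), *Purg* and *Vcam1*, for *Twist2* *Tmem132c* (0.835), *Adamts20* and *Fam174b*, for *Zeb1* *Cdk14* (0.877), *Soga1* and *Zbtb10*, and for *Zeb2* *Thy1* (0.885), *Spon1* and *Hif3a*. For *Prrx1* they were *Gm26523* (0.904), *Kifap3* and *Cacna1c*, and for *Prrx2* *Phf14* (0.864), *Zfp638* and *Vezf1*. *Snai1* and *Snai2* were the only pair in which 1 gene was among the 3 most like the other. *Id2*, the gene most like *Snai1*, was at 2027 CPM in the E11.5 sort, at 377 and 174 in those of E13.5 and E14.5, and at 104 in E16.5 proximal.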

How the data were processed

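Cells were captured with the 10x Genomics 3′ kit (v2 up to E13.5, v3 from E14.5). The authors aligned reads to a modified mm10 genome and counted UMIs per gene and cell with Cell Ranger, and the deposited matrices hold raw counts. Matrix headers name version 3.0.2 for 5 sorted libraries and 6.0.1 for E16.5 distal; those of whole 1 and whole 2 name none, and the study's reporting summary gives a further version for its single-cell data in general.

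Barcodes with at least 3000 UMIs and at most 10% mitochondrial UMIs were kept, and doublets were not removed. UMIs were summed per library, class and cluster and given as counts-per-million (CPM). Cells were clustered without the 8 genes (scanpy 1.11.5; 2000 variable genes, 50 components, 25 neighbours, Leiden resolution 1) in 3 sets (time course, both E16.5 segments, all E11.5 libraries). A cluster took a class name from at least 3 markers (log2 fold 1, 10% of cells), unless another class had more markers among its top 10 genes. Classes under 50 cells were left out of comparisons between classes. Alternatives included clustering at resolutions 0.5 and 2 and leaving out the 5% of cells with the highest doublet scores. Shares of cells were taken after thinning to 3000 UMIs. Ratios have exact conditional binomial intervals, a 2-fold call needed 5 CPM in either library, and a count of 0 allows 3 UMIs. Intervals cover counting error only.

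E11.5 sums were tested with edgeR 4.0.16 (quasi-likelihood, TMM scaling, Benjamini-Hochberg threshold 0.05; R 4.3.3), with DESeq2 1.42.0 and limma 3.58.1 as alternatives, after a test on simulated data. From each list the 2 genes with the largest absolute log2 ratio could be named, if either library had 10 CPM, and for each of the 8 genes the 3 most correlated features. The 8 genes and all lists were chosen with earlier results of these data known. The steps E12.5 to E13.5 and E13.5 to E14.5, and the removal of the keratin cluster were added after seeing the data.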

Additional observations from a re-analysis of the deposited data

How the results depend on the processing

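Of 528 alternative values of the ratios, 350 moved by less than their counting interval and 178 by more, none by over 1.5 times, and 17 changed sign, all of ratios within 0.42 of 0 on the log2 scale. The count of genes past 2-fold from E14.5 to E16.5 proximal, 2 as reported, was 0 with TMM scaling, 1 with thinned cells, 0 with the mean of per-cell levels, 0 without epithelial-like clusters and 0 also without the keratin cluster, a setting chosen after seeing the data. Between the segments the count of 4 was 2 with TMM scaling, 2 without epithelial-like clusters and 2 also without the keratin cluster. In the E11.5 comparison 8054 genes were called by edgeR, 4917 by DESeq2 and 3831 without a filter on low counts. Without that filter 5 of the 8 genes were called instead of 7, with *Snai2* (adjusted p = 0.0513) and *Twist2* (adjusted p = 0.0652) lost. The log2 fold change of *Zeb1* was -0.054 with all cells and -0.046 with a minimum of 1000 UMIs, against 0.05. The cause was not tested. Leaving out whole 1 or whole 2 left no residual degrees of freedom. No paired analysis was possible because there is 1 sorted library at E11.5, whose labels give no replicate number, so fewer than 2 pairs could be formed. With 1 library per sorted group, differences between stages or segments have no replicate check.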
